A study of Danio rerio with 4 samples.

Results

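Claudins and their partners at the tight junction were followed in 4 zebrafish head libraries: every gene of the count table whose symbol starts with cldn, ocln or tjp, whatever the case of its letters, was taken. This gave 48 of the 31952 genes in the table. By known role they were 32 claudins mostly known from epithelia, 2 genes carrying the symbol CLDN5 (the endothelial claudin), 4 claudins of myelin and nerve sheaths (CLDN19, cldnk and 2 CLDN11 genes), CLDN12, 2 claudin domain-containing genes, 2 occludins and 5 tjp scaffold genes. Capital symbols are those of the name table, and 8 of the 48 genes share a symbol with another (CLDN5, CLDN10 and CLDN11 among them), so such genes are given with their Ensembl identifier and no paralog letter was assigned.

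Tight junctions seal the gap between neighbouring cells of an epithelium or endothelium. Claudins are small proteins that cross the membrane and join their counterparts on the next cell, and the set of claudins a tissue makes sets which ions and solutes pass between its cells. Occludin is part of the same strands and the zonula occludens proteins, encoded by the tjp genes, tie them to actin inside the cell, while in mammals claudin 5 seals the vessels of the brain, claudin 11 seals oligodendrocyte myelin and claudin 19 seals Schwann cell sheaths.

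The study compared neutrophil nuclei from heads of larvae aged 5 days (5 dpf), with 2 NRas+ libraries and 2 control libraries. Larvae of both groups carried the same transgenes. These were mpo:BirA-Citrine and bactin:Avi-Cerulean-Rangap for tagging (labelled ox128), crossed with kita:LexPR-Cerulean and the oncogene construct PcrysB:ECFP-LexOP:mCherry-NRas (labelled ox130). The study's own list of lines gives ox130 to its mitfa driver line and another allele to the kita line. NRas+ larvae received 1 µM mifepristone from 24 hpf, which switches on mCherry-NRas in kita-expressing cells, among them melanocytes. Control larvae received none, so drug and oncogene cannot be told apart in these libraries. For profiling, the study picked embryos whose melanocytes expressed mCherry-NRas, and it does not describe how control larvae were picked. In tagged fish without the oncogene, the study's qPCR found selected genes little changed or unchanged by mifepristone. None of those genes was a claudin, occludin or tjp gene. BirA is made in neutrophils under mpo control and biotinylates the nuclear envelope tag, and nuclear RNA was taken from biotin-tagged nuclei captured from pooled larvae. The study describes its replicates both as independent experiments and as technical replicates, and describes more of them than were analysed here. The labels do not say whether the 2 libraries of a group came from separate clutches, so p-values measure only the spread between these libraries, which may be technical.

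Libraries held 30619195 to 42365244 counts, and the scaling factors ran from 0.861 to 1.41 (control 2). Genes of the neutrophil list took 0.0228 to 0.0446% of the counts of a library, and skeletal muscle genes took 42.3 and 42.7% in NRas+ libraries against 30.0 and 21.4% in control libraries. The neutrophil lysozyme gene lyz was at 10.9 and 12.6 CPM (counts scaled by library size and TMM factor) in NRas+ libraries, against 12.6 and 3.0 CPM in control libraries. Most of the neutrophil list came from CEBPB, at 172 and 370 of 265 and 474 CPM in NRas+ libraries. In control libraries CEBPB was at 227 and 158 of 311 and 247 CPM. The muscle actin gene actc1b was at 121560 and 114034 CPM in NRas+ libraries, against 68599 and 40295 CPM in control libraries. Transcripts of epithelial, endothelial, glial and muscle cells were thus all present beside neutrophil transcripts, and the counts do not say in which cells a claudin transcript was made.

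Many claudins of epithelia and both occludins were read at a higher level in both NRas+ libraries than in either control library. The groups overlapped in the CLDN5 genes and in the sheath claudins, as they did in 11591 of all 20099 genes tested. Of the 48 genes, 40 had enough counts to test, and 1 of them, cldne, rose in NRas+ libraries past an adjusted p of 0.05 (edgeR quasi-likelihood test, Benjamini-Hochberg over 20099 genes). None fell. Over all genes tested, 0.169% were called, 0.129% higher and 0.0398% lower. At an unadjusted p under 0.05 the members counted 10 higher and 0 lower, where 5.16% of all genes were higher and 6.11% lower. DESeq2 called 4 members higher (cldne, cldna, cldni and oclna) and 0 lower, against 1.27% and 0.794% of the genes it tested. Both NRas+ libraries lay above both control libraries in 19 of all 48 members and below them in 3, while the groups overlapped in 26. Over all 31952 genes in the table, 4658 lay above and 4999 below, and 22295 overlapped. Among the 40 tested, 19 lay above and 2 below, where over all genes tested the shares were 20.5% above and 21.8% below. In these bulk libraries more cells of a type and more RNA per cell cannot be told apart.

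**Figure D1:**
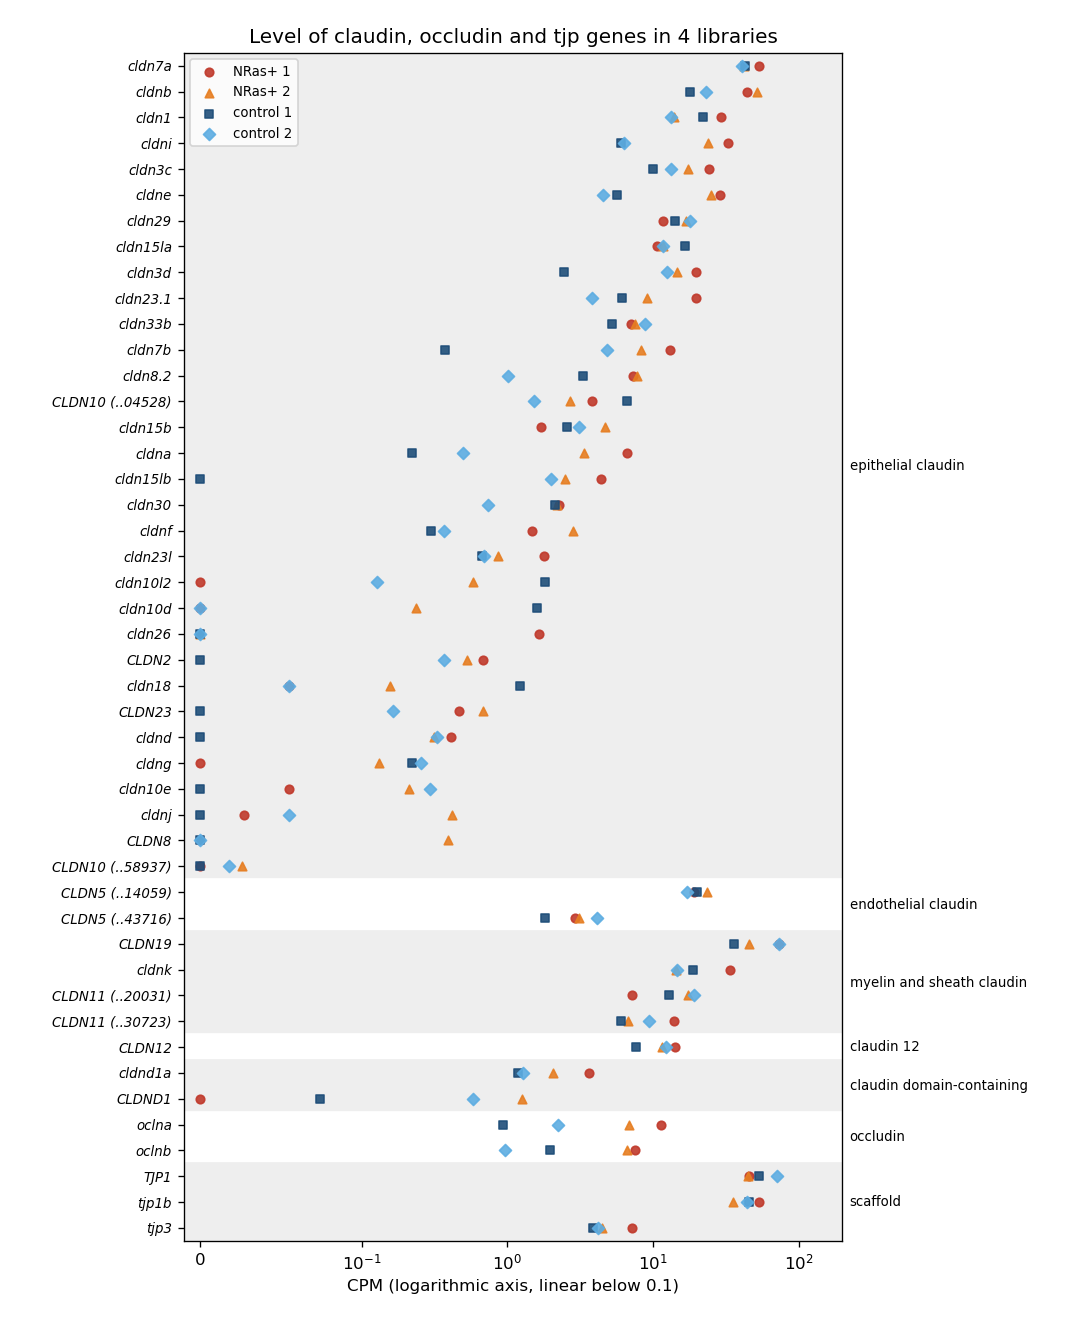
Level of 46 genes in CPM (logarithmic axis, linear below 0.1; not corrected for gene length), grouped by role, with 1 point per library: NRas+ 1 and 2 (circle, triangle) and control 1 and 2 (square, diamond). For cldne, cldni, cldnb, cldna, oclna and oclnb both NRas+ points lie right of both control points, whereas for CLDN5, CLDN19 and tjp1b the points of the groups mix.

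The gene that passed the test, cldne (ENSDARG00000043128), is a claudin of the larval skin surface in zebrafish. It was at 29.1 and 25.1 CPM in NRas+ libraries, against 5.69 and 4.58 CPM in control libraries, from 1060 and 955 counts against 153 and 250 counts. The groups lay far apart, with little spread within either. The fold was 5.35 (log2 2.42, SE 0.47, adjusted p = 0.0343 in edgeR). The call was lost, at a log2 value of 2.31 to 2.58, without NRas+ 1 (adjusted p = 0.574 in edgeR), without NRas+ 2 (0.263) or without control 1 (0.122), and it was also lost with the older quasi-likelihood fit of edgeR (0.129) or with no filter on low counts (0.0830). It was kept with scaling factors computed without the skeletal muscle genes.

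Other epithelial claudins had differences of similar size without passing the test. The claudin gene cldni was at 33.0 and 23.7 CPM in NRas+ libraries, against 6.07 and 6.30 CPM in control libraries. Its groups did not overlap either, and its log2 difference of 2.19 (SE 0.46) just missed the threshold with an adjusted p of 0.0531 in edgeR. DESeq2 called it (adjusted p = 0.00110), as did edgeR when each library had to hold 10 counts of a gene (0.0246). For cldna the levels were 6.64 and 3.39 CPM in NRas+ libraries and 0.223 and 0.494 CPM in control libraries, with a log2 difference of 3.63 (SE 1.03, adjusted p = 0.151 in edgeR). That is the largest log2 difference of any member tested, on low control levels, and DESeq2 called it (adjusted p = 0.00402). For cldnb, a claudin widely used to mark the lateral line primordium in zebrafish, the levels were 44.2 and 52.2 CPM in NRas+ libraries and 17.9 and 23.3 CPM in control libraries (log2 1.22, SE 0.39, adjusted p = 0.214 in edgeR). Each NRas+ library exceeded each control library, yet the adjusted p over all genes missed the threshold.

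The next claudins by p-value included several with uneven controls. For cldn23.1 the levels were 19.9 and 9.17 CPM in NRas+ libraries against 6.14 and 3.83 CPM in control libraries (log2 1.59, adjusted p = 0.264 in edgeR). For cldn8.2, whose mammalian relative claudin 8 is a barrier claudin of the distal nephron, they were 7.32 and 7.78 CPM in NRas+ libraries against 3.31 and 1.01 CPM in control libraries (log2 1.98, adjusted p = 0.295 in edgeR). For cldn7b, a relative of mammalian claudin 7 of gut and kidney epithelia, they were 13.1 and 8.28 CPM in NRas+ libraries against 0.372 and 4.83 CPM in control libraries (log2 1.83, adjusted p = 0.308 in edgeR). For cldn7b, control 1 thus stood far below control 2. For cldnf the levels were 1.48 and 2.84 CPM in NRas+ libraries against 0.298 and 0.366 CPM in control libraries (log2 2.65, SE 1.17, adjusted p = 0.395 in edgeR). The same low control 1 was seen for cldn3d, with 19.8 and 14.6 CPM in NRas+ libraries against 2.46 and 12.6 CPM in control libraries (log2 1.1, SE 0.56, adjusted p = 0.482 in edgeR). Leaving out single libraries moved the cldn3d value between 0.46 and 2.83. Its relative cldn3c was more even, at 24.4 and 17.5 CPM in NRas+ libraries against 9.97 and 13.3 CPM in control libraries (log2 0.83, SE 0.44, adjusted p = 0.499 in edgeR).

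Several well-read epithelial claudins had small differences. For cldn7a the levels were 53.3 and 41.9 CPM in NRas+ libraries and 42.8 and 40.9 CPM in control libraries (log2 0.19, SE 0.37). For cldn1, whose mammalian counterpart seals the epidermis, they were 29.3 and 14.0 CPM in NRas+ libraries and 22.0 and 13.3 CPM in control libraries (log2 0.32, SE 0.46). The groups overlapped for both genes. The claudin gene cldn29 was at 11.8 and 16.7 CPM in NRas+ libraries and 14.3 and 18 CPM in control libraries, and cldn33b was at 7.05 and 7.57 CPM in NRas+ libraries and 5.21 and 8.88 CPM in control libraries. The gut claudin cldn15la, used to mark intestinal epithelium in zebrafish, was at 10.7 and 11.7 CPM in NRas+ libraries and 16.7 and 11.7 CPM in control libraries (log2 -0.33, SE 0.46). The other epithelial claudins with negative values, beside cldn15la and cldn29, were cldn10l2, at 0 and 0.578 CPM in NRas+ libraries against 1.82 and 0.128 CPM in control libraries (log2 -1.32, SE 1.55), and CLDN10 (ENSDARG00000104528), at 3.81 and 2.68 CPM in NRas+ libraries against 6.62 and 1.54 CPM in control libraries (log2 -0.18, SE 0.81). Adjusted p for these 7 genes ran from 0.811 to 0.996 in edgeR.

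The remaining epithelial claudins were read at low counts. In cldn15lb the counts were 161 and 95 in NRas+ libraries and 0 and 109 in control libraries, in CLDN2 they were 25 and 20 against 0 and 20, and in CLDN23 they were 17 and 26 against 0 and 9. With cldnd and cldn10e these were the 5 members read at 0 in control 1 and at 9 counts or more in control 2, so their control level comes from control 2 alone, and CLDN23 entered the test through its NRas+ libraries alone. A count of 0 in control 1 allows a level of up to 0.112 CPM (3 counts), for counting error only. For cldn15b, cldn23l and cldn30 the log2 values were 0.16 (SE 0.80), 0.94 (SE 1.09) and 0.83 (SE 0.98). The 8 members not tested had at most 60 counts in any library. The gene cldn26 had 60 counts in NRas+ 1 and 0 elsewhere, while cldn10d had 0 and 9 counts in NRas+ libraries and 43 and 0 in control libraries, and cldn18 had 2 and 6 counts in NRas+ libraries and 33 and 3 in control libraries. The other 5, CLDN10 (ENSDARG00000058937), cldn10e, CLDN8, cldng and cldnj, had 16 counts or fewer in every library.

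Over the 32 epithelial claudins the summed level was 328 and 273 CPM in NRas+ libraries, against 170 and 173 CPM in control libraries. The ratio of means was 1.75. The evenness of the control sums depended on the scaling factors. As unscaled shares of counts they were 0.0283 and 0.0257% in NRas+ libraries, against 0.0149 and 0.0243% in control libraries, where control 2 came close to NRas+ 2. Both NRas+ libraries were above both control libraries in 15 of the 32, below them in 2 (cldn15la and cldng, by little) and overlapping in 15. Over all 31952 genes in the table, 4658 were above and 4999 below. All these counts rest on scaled levels. As unscaled shares of counts, the groups overlapped in cldn3c, cldn3d, cldn15lb, CLDN2 and cldn23l, which were among the 15. Of the 24 tested, 20 had a positive and 4 a negative log2 value, and 1 was called in edgeR. At an unadjusted p under 0.05 in edgeR, 8 were higher and 0 lower, where 5.16% of all genes tested were higher and 6.11% lower. The median log2 value of those tested was 1.02, ranging from -1.32 to 3.63, where the median of all genes tested was -0.04. A few genes carried the summed difference, with 21.4% of it from cldnb, 17.2% from cldni and 17% from cldne, or 55.5% together. Without these 3 the sums were 222 and 172 CPM in NRas+ libraries and 141 and 139 CPM in control libraries. On these scaled levels the excess was smaller yet still present in each NRas+ library. As unscaled shares of counts it was not, since control 2 was then the highest library. The 3 were taken out after their values were seen.

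**Figure D2:**
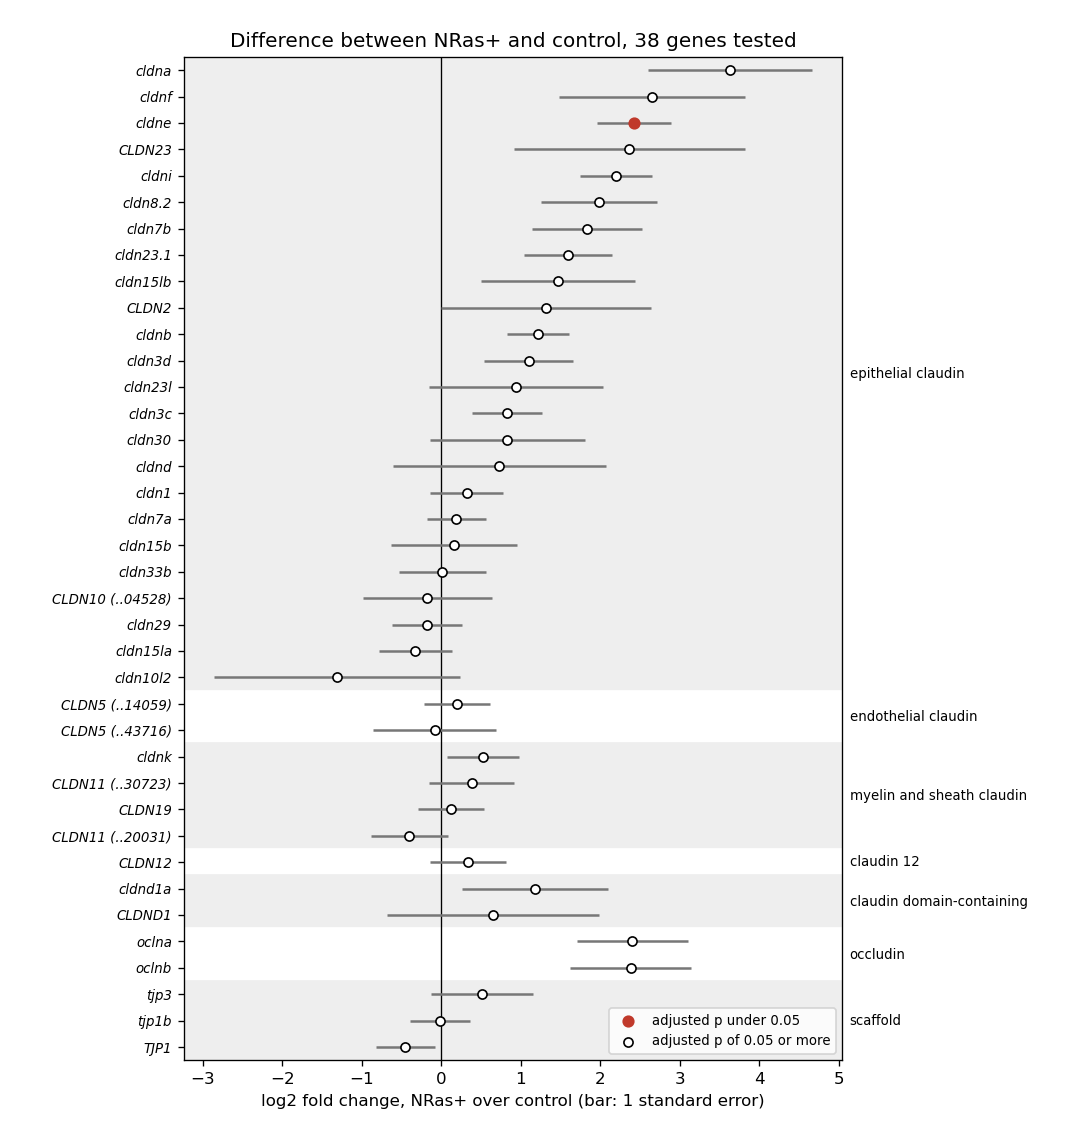
Log2 fold change, NRas+ over control, with its standard error for 38 genes tested, grouped by role; the filled symbol marks cldne, the gene called by edgeR. Epithelial claudins spread from -1.32 to 3.63, the CLDN5 genes and TJP1, tjp1b and tjp3 lie around 0, and both occludins lie near 2.4.

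Some of these claudin genes lie side by side in the genome. The RefSeq gene order of assembly GRCz12tu gave 7 runs of neighbouring claudins, and 2 of them held more than 1 tested member. In the first, cldnj, cldne, cldnf and cldna follow each other, and the 3 of them that were tested had log2 values of 2.42, 2.65 and 3.63, the highest of the epithelial claudins tested. In the longer run, cldn3c, cldn3d and cldnb had 0.83, 1.1 and 1.22, while their neighbour cldn29 had -0.18, cldnd had 0.73 and cldn30 had 0.83. Neighbouring claudins are related copies, and reads that map to several places are by default not counted by featureCounts. How many reads of these genes were lost in this way was not tested.

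The endothelial claudins showed no difference that passed the test. CLDN5 (ENSDARG00000014059) was at 19.1 and 23.5 CPM in NRas+ libraries, against 20.2 and 17.2 CPM in control libraries (log2 0.19, SE 0.41, adjusted p = 0.908 in edgeR). CLDN5 (ENSDARG00000043716) was at 2.91 and 3.1 CPM in NRas+ libraries, against 1.82 and 4.14 CPM in control libraries (log2 -0.08, SE 0.78, adjusted p = 0.986 in edgeR). The groups overlapped in both genes, and for the second the standard error leaves room for a difference of either sign. Summed, they were at 22.0 and 26.6 CPM in NRas+ libraries and 22.0 and 21.4 CPM in control libraries, a ratio of means of 1.12.

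Set against CLDN5 in the same library, the summed epithelial claudins were 14.9 and 10.3 times as high in NRas+ libraries, against 7.72 and 8.09 times in control libraries. This ratio needs no scaling between libraries. On the log2 scale it averaged 3.63 ± 0.38 in NRas+ libraries and 2.98 ± 0.05 in control libraries (SD, n = 2 each), a difference of 0.64. No test was run on it, since the smallest two-sided p that permuting 2 against 2 libraries allows is 0.333. Leaving out single libraries moved the difference between 0.38 and 0.91. With CLDN5 (ENSDARG00000014059) alone as denominator the log2 ratios were 4.1 and 3.54 in NRas+ libraries and 3.07 and 3.33 in control libraries, whereas with the weakly read CLDN5 (ENSDARG00000043716) alone they were 6.82 and 6.46 against 6.54 and 5.39 and the groups overlapped.

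**Figure D3:**
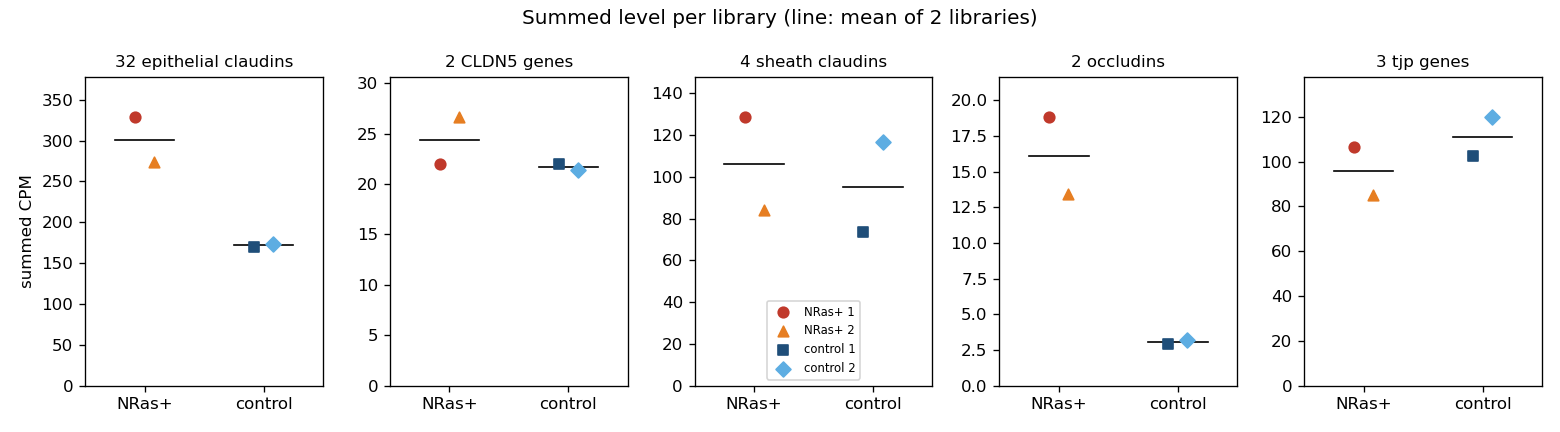
Summed CPM of 5 groups of genes in each library (vertical axes from 0, each with its own scale; points are libraries, NRas+ left and control right; lines are means of 2 libraries). Epithelial claudins and occludins are higher in both NRas+ libraries, at 273 to 328 against 170 to 173 CPM and at 13.5 to 18.8 against 2.90 to 3.18 CPM, whereas the groups overlap or nearly meet in the other sums.

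The groups overlapped in all 4 sheath claudins too, as they did in most of all genes tested. CLDN19 was at 73.7 and 45.4 CPM in NRas+ libraries and 35.8 and 73.2 CPM in control libraries. The myelin claudin cldnk, which marks oligodendrocytes and Schwann cells in zebrafish, was at 33.6 and 14.4 CPM in NRas+ libraries and 18.9 and 14.6 CPM in control libraries. In both genes the NRas+ libraries differed from each other by more than the group means did. CLDN11 (ENSDARG00000020031) was at 7.18 and 17.4 CPM in NRas+ libraries and 12.9 and 19.3 CPM in control libraries, and CLDN11 (ENSDARG00000030723) was at 14.0 and 6.70 CPM in NRas+ libraries and 6.07 and 9.41 CPM in control libraries. Log2 values of the 4 genes ran from -0.40 to 0.53 with standard errors of 0.41 to 0.54, and none passed the test in edgeR or DESeq2 or had an unadjusted p under 0.05. CLDN12, a claudin that in mammals lacks the usual anchor for scaffold proteins, was at 14.2 and 11.5 CPM in NRas+ libraries and 7.67 and 12.2 CPM in control libraries (log2 0.34, SE 0.48). Of the claudin domain-containing genes, cldnd1a was at 3.62 and 2.05 CPM in NRas+ libraries and 1.19 and 1.28 CPM in control libraries (log2 1.18, SE 0.92, adjusted p = 0.678 in edgeR), and CLDND1 had 0 and 48 counts in NRas+ libraries and 2 and 32 counts in control libraries.

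Both occludin genes were read several times higher in NRas+ libraries, without passing the edgeR test. The occludin gene oclna was at 11.3 and 6.86 CPM in NRas+ libraries, against 0.930 and 2.21 CPM in control libraries (log2 2.4, SE 0.70, unadjusted p = 0.00274 and adjusted p = 0.168 in edgeR). DESeq2 called it, with an adjusted p of 0.0234. Its paralog oclnb was at 7.49 and 6.60 CPM in NRas+ libraries, against 1.97 and 0.970 CPM in control libraries (log2 2.38, SE 0.76, unadjusted p = 0.00559 and adjusted p = 0.216 in edgeR). Neither gene overlapped between the groups, and with any library left out the log2 value was 1.86 or more. Their sum was 18.8 and 13.5 CPM in NRas+ libraries, against 2.90 and 3.18 CPM in control libraries.

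The scaffold genes TJP1, tjp1b and tjp3 did not pass the test. TJP1 was at 45.8 and 45.1 CPM in NRas+ libraries, against 53.2 and 71.0 CPM in control libraries (log2 -0.45, SE 0.37, adjusted p = 0.691 in edgeR), with both NRas+ libraries below both control libraries. Its paralog tjp1b was at 53.5 and 35.5 CPM in NRas+ libraries and 45.4 and 44.5 CPM in control libraries (log2 -0.01, SE 0.38). The zonula occludens 1 genes are also used outside epithelia, in mammals for example at the intercalated discs of the heart. The related gene tjp3, which in mammals is found mainly in epithelia, was at 7.21 and 4.49 CPM in NRas+ libraries and 3.91 and 4.23 CPM in control libraries (log2 0.51, SE 0.64, adjusted p = 0.821 in edgeR). The sum over these 3 was 107 and 85.1 CPM in NRas+ libraries and 103 and 120 CPM in control libraries, and none passed the test in edgeR or DESeq2 or had an unadjusted p under 0.05.

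Further proteins of the tight junction, from a list of 44 genes in the table, had mostly negative values. Of the 40 tested, 11 had a positive and 29 a negative log2 value (median -0.43), and none passed the test in edgeR or DESeq2. Over all genes tested, 9637 values were positive and 10462 negative. At an unadjusted p under 0.05 in edgeR, 3 were higher and 3 lower, where 5.16% of all genes tested were higher and 6.11% lower. Both NRas+ libraries lay above both control libraries in 7 of the 40 and below them in 16. Over all genes tested those shares were 20.5% and 21.8%. The polarity scaffold gene pard3bb was at 66.2 and 61.9 CPM in NRas+ libraries, against 213 and 108 CPM in control libraries (log2 -1.32, SE 0.40, adjusted p = 0.196 in edgeR). Its relative PARD3 was at 30.4 and 32.8 CPM in NRas+ libraries, against 110 and 51.5 CPM in control libraries (log2 -1.34, adjusted p = 0.198 in edgeR). Control 1 was the highest library for both, and also for arhgef18a, with 5.84 and 5.91 CPM in NRas+ libraries against 25 and 6.57 CPM in control libraries. Among those with positive values, f11r.1, which encodes the junctional adhesion molecule JAM-A, was at 9.71 and 10.5 CPM in NRas+ libraries against 4.28 and 3.81 CPM in control libraries (log2 1.33, SE 0.57, adjusted p = 0.373 in edgeR). The tricellular junction gene ildr1a was at 7.21 and 1.37 CPM in NRas+ libraries against 0.409 and 0.714 CPM in control libraries, and the polarity gene pard6a was at 8.97 and 6.68 CPM in NRas+ libraries against 0.112 and 3.46 CPM in control libraries.

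The adherens junction, which lies just below the tight junction and holds cells together through cadherins, had 19 genes in the table and 17 tested, with 8 positive and 9 negative log2 values (median -0.20). None passed the test in edgeR or DESeq2. Both NRas+ libraries lay above both control libraries in 2 of the 17 and below them in 7. Over all genes tested those shares were 20.5% and 21.8%. At an unadjusted p under 0.05 in edgeR, 5.16% of all genes tested were higher and 6.11% lower. Of the 17, 0 were higher and 1 lower. That gene was AFDN, the afadin gene linking nectins to actin, at 36.3 and 32.8 CPM in NRas+ libraries against 103 and 61.5 CPM in control libraries (log2 -1.25, SE 0.39, adjusted p = 0.204 in edgeR). The next by p-value were NECTIN1 (ENSDARG00000086034) and nectin3b with log2 values of -1.11 and -0.88, and, with positive values, nectin4a (2.25, read in a single library of each group), CTNNA2 (0.45) and PLEKHA7 (ENSDARG00000060813, 0.38). The epithelial cadherin gene cdh1 was at 13.2 and 9.91 CPM in NRas+ libraries and 5.69 and 11.3 CPM in control libraries.

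Epidermal markers were mostly higher in NRas+ libraries as well. Of 40 epidermis genes, all tested, 32 had positive log2 values and 8 negative ones (median 0.67). Over all genes tested, 9637 values were positive and 10462 negative. None of the 40 was called in edgeR, and 1 was called higher in DESeq2, where 1.27% of the genes it tested were higher. At an unadjusted p under 0.05 in edgeR, 11 were higher and 0 lower, where 5.16% of all genes tested were higher and 6.11% lower. In 18 of the 40 both NRas+ libraries lay above both control libraries and in 4 below them, where the shares over all genes tested were 20.5% and 21.8%. Among those 4, krt8 was at 431 and 395 CPM in NRas+ libraries against 745 and 642 CPM in control libraries. The summed level of the list was 6123 and 2724 CPM in NRas+ libraries and 4056 and 2305 CPM in control libraries. The surface keratin gene krt4, which belongs to it, was at 3123 and 1063 CPM in NRas+ libraries and 1460 and 421 CPM in control libraries. The epithelial adhesion gene epcam was at 67.4 and 52.3 CPM in NRas+ libraries, against 41.6 and 33.1 CPM in control libraries (log2 0.68, SE 0.38, adjusted p = 0.523 in edgeR), and TP63, of basal epidermis, was at 16.8 and 5.65 CPM in NRas+ libraries and 11.2 and 8.88 CPM in control libraries. No defining epidermal marker was at 0 in any library. The part of epithelial content in the claudin differences was not tested.

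**Figure D4:**
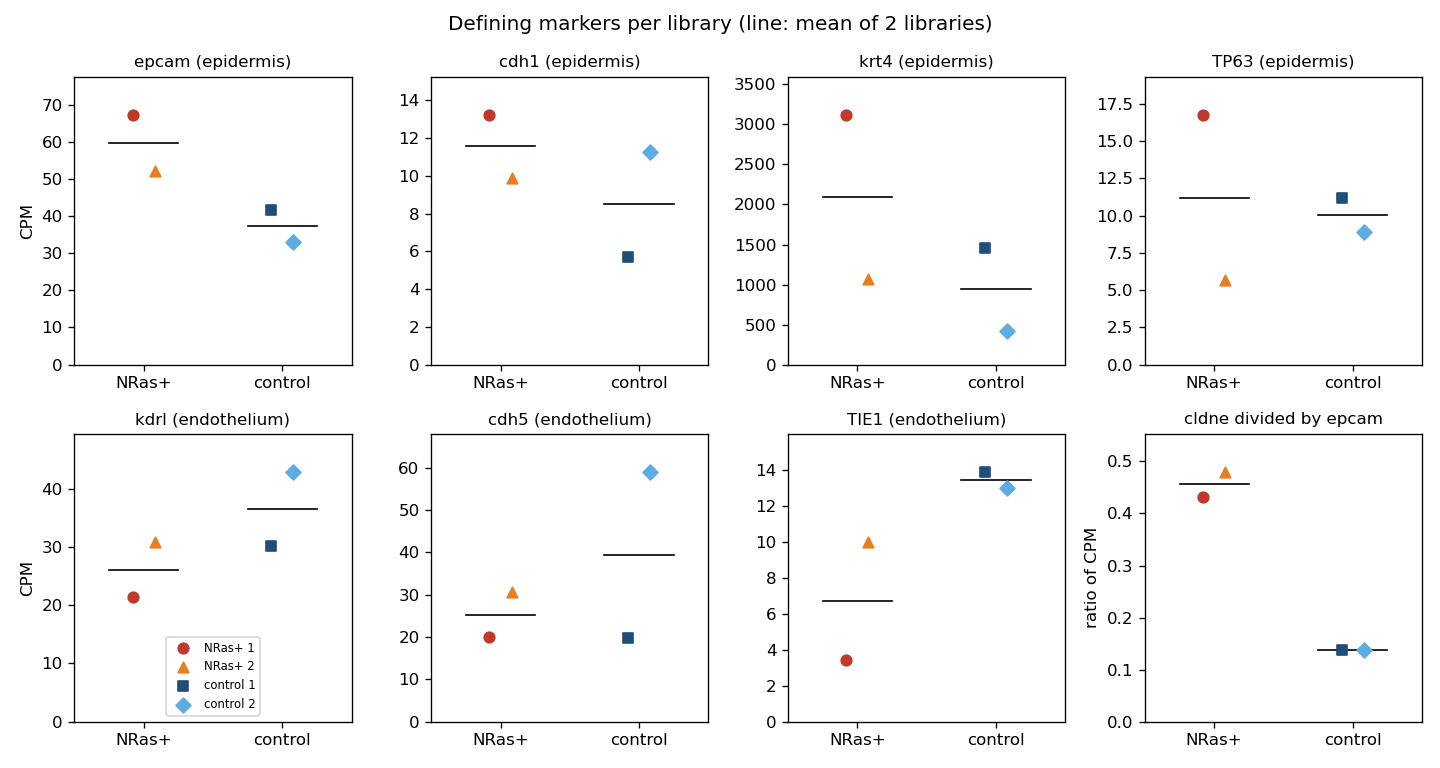
CPM of defining marker genes in each library, with each vertical axis from 0. Points are libraries, NRas+ left and control right, and lines are means of 2 libraries. The last panel gives cldne CPM divided by epcam CPM instead. The epithelial marker epcam is at 52.3 to 67.4 CPM in NRas+ libraries and 33.1 to 41.6 CPM in control libraries, while krt4 and cdh1 overlap between the groups and the endothelial kdrl and cdh5 are present in every library.

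Set against epcam in the same library, a comparison chosen after the values were seen, the summed epithelial claudins were 4.87 and 5.23 times the epcam level in NRas+ libraries and 4.09 and 5.23 times in control libraries, and the groups overlapped, as they did against cdh1 and krt4. Against TP63 they did not, by a narrow margin, at 19.6 and 48.3 times the TP63 level in NRas+ libraries and 15.2 and 19.5 times in control libraries. For cldne the ratio to epcam was 0.431 and 0.480 in NRas+ libraries, against 0.137 and 0.138 in control libraries, a ratio of means of 3.31. The ratio of cldni to epcam was 0.490 and 0.454 in NRas+ libraries, against 0.146 and 0.190 in control libraries, and that of oclna was 0.168 and 0.131 against 0.0224 and 0.0669. Against cdh1, cldne was at 2.2 and 2.53 in NRas+ libraries and 1.00 and 0.406 in control libraries. Against krt4 it was at 0.00931 and 0.0236 in NRas+ libraries and 0.00390 and 0.0109 in control libraries, and the groups overlapped. For cldni and oclna too the groups overlapped against krt4, and both were separate against cdh1 and TP63. For cldna, on low control levels, and oclnb the groups were separate against epcam, cdh1, krt4 and TP63. For cldnb they overlapped against epcam and krt4 and were separate against cdh1 and TP63. For the sum, cldne, cldni, oclna and cldnb, separation thus depended on the marker used.

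Of 34 endothelium genes, all tested, 12 had positive and 22 negative log2 values (median -0.48). None was called in edgeR, and 1 was called lower in DESeq2, where 0.794% of the genes it tested were lower. At an unadjusted p under 0.05 in edgeR, 0 were higher and 2 lower, where 5.16% of all genes tested were higher and 6.11% lower. Both NRas+ libraries lay above both control libraries in 1 of the 34 and below them in 15. Over all genes tested those shares were 20.5% and 21.8%. The endothelium genes summed to 450 and 438 CPM in NRas+ libraries, against 603 and 645 CPM in control libraries. The receptor gene kdrl was at 21.4 and 30.8 CPM in NRas+ libraries against 30.1 and 42.9 CPM in control libraries. TIE1, an endothelial receptor, was at 3.43 and 9.99 CPM in NRas+ libraries against 13.9 and 13 CPM in control libraries (log2 -0.99, adjusted p = 0.516 in edgeR). The vessel cadherin gene cdh5 was at 20.0 and 30.6 CPM in NRas+ libraries and 19.8 and 59.1 CPM in control libraries. Each CLDN5 gene thus overlapped between the groups beside an endothelial sum that was lower in both NRas+ libraries. The CLDN5 sum was 22.05 and 26.63 CPM in NRas+ libraries, barely separate from 22.03 and 21.38 CPM in control libraries. Myelin genes had a median of -0.05 over 14 tested, with none called in edgeR or DESeq2. At an unadjusted p under 0.05 in edgeR, 1 was higher and 2 lower, beside the same 5.16% and 6.11% of all genes. The glial and neural crest gene SOX10 was at 7.87 and 8.23 CPM in NRas+ libraries and 11.1 and 9.39 CPM in control libraries, and mbpa, of myelin sheaths, was at 325 and 182 CPM in NRas+ libraries and 307 and 192 CPM in control libraries.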

How the data were processed

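The authors aligned reads from nuclear RNA (SMART-seq v4 cDNA, Nextera XT libraries) with STAR 2.4.2a to danRer10 and deposited featureCounts gene counts for 2 NRas+ and 2 control libraries. Counting is described as run with standard parameters, whose default leaves out multi-mapping reads and ignores strand. The labels give the strand as reverse, so the strand setting could not be settled, and antisense or overlapping genes are uncertain. The annotation release is not given in the sources used here. Symbols were matched for 26121 of 31952 gene identifiers (81.8%). Raw counts were tested in edgeR 4.0.16 (filterByExpr with a minimum count of 10, TMM scaling, quasi-likelihood test, NRas+ over control, no covariate, Benjamini-Hochberg threshold 0.05), with SE taken as the log2 value over the root of F. CPM used the scaled library sizes and is not corrected for gene length, so levels were compared between libraries and not between genes. Replicates differed by more than counting noise (chi-square per gene 51.2 in NRas+ and 158 in control libraries). Members, lists and tests were chosen with earlier results of these data known.

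Members named were those past the threshold, all CLDN5, tjp, ocln, cldnk, CLDN11 and CLDN19 genes, the 12 other claudins with the highest mean CPM and the 5 tested claudins with the smallest p in each direction. From the partner and adherens lists the 3 with the smallest p in each direction were named, and defining markers were named throughout. Most remaining members were named as well, and 2 members and 1 marker that these rules cover are not reported here. The markers mpx and pecam1 were not matched by name and were not analysed here. Alternatives were DESeq2 1.42.0, the older quasi-likelihood fit, RLE scaling, TMM without muscle genes, other count filters, the replicate number as a block and each library left out. On simulated counts of this comparison (20099 genes, 18940 tested, 200 changed by a log2 value of 3) edgeR recovered 50.5% of the changed genes, with 7 false calls. That change is larger than the value of every tested member except cldna. The simulated libraries also lacked the differences in scaling factor seen here, so recovery at the size of most members was not measured.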

Additional observations from a re-analysis of the deposited data

How the results depend on the processing

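With 2 libraries a group, calls depended on the settings, and so did the direction of several named members. Members called higher numbered 1 as reported, 4 in DESeq2, 2 with at least 10 counts in every library, and 0 with the older quasi-likelihood fit or no filter, with 0 to 1 when single libraries were left out. No setting called a member lower. All genes called higher numbered 26, against 234 in DESeq2, 10 with the older fit, 88 with at least 10 counts, and 6 to 88 with a library left out, and genes called lower numbered 8, against 146, 0 and 64 in those settings, 2 with no filter, and 0 to 263 with a library left out. The median of the epithelial claudins, 1.02, was 0.88 with no filter, 0.85 with at least 10 counts, and 0.73 to 1.26 with a library left out. The log2 ratio of epithelial claudins to CLDN5 differed by 0.64, by 1.06 from medians of log2 CPM, and by 0.38 to 0.91 with a library left out. DESeq2 gave oclna 2.56. The causes were not tested.

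The replicate number as a block gave 0 members, 7 genes higher and 0 lower, with an adjusted p of 0.131 for cldne in edgeR. The labels do not pair the libraries, and replicate differences of the groups correlated at 0.147 over 2 pairs.

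Several values changed sign, not all of them near 0. The value of tjp1b was 0.0176 in DESeq2, 0.0163 with RLE scaling and 0.0044 with at least 10 counts, and that of CLDN5 (ENSDARG00000043716) was 0.0429 in DESeq2, 0.0075 with the older fit and 0.0237 with the replicate block. With a library left out, the log2 values ran from -0.33 to 0.29 for tjp1b, -0.45 to 0.74 for that CLDN5 gene, -0.29 to 0.76 for CLDN19, -0.21 to 1.04 for cldnk, -1.14 to 0.11 for CLDN11 (ENSDARG00000020031), -0.21 to 0.87 for CLDN11 (ENSDARG00000030723), -0.32 to 0.78 for cldn1, -0.42 to 0.0594 for cldn29, -0.27 to 0.51 for cldn33b, -1.01 to 1.09 for CLDN10 (ENSDARG00000104528) and -7.95 to 1.2 for cldn10l2. Leaving out NRas+ 2 or control 2 moved the median of all genes to -0.18 and 0.15.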
